A study of Mus musculus with 33 samples.

Results

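The two-cell-like state genes were followed in undifferentiated and differentiating mouse embryonic stem (ES) cells. The name refers to transcripts of the 2-cell embryo that rare ES cells transiently re-express. The set was chosen by symbol and comprised 9 genes: *Zscan4c*, *Zscan4d*, *Zscan4f*, *Tcstv1*, *Tcstv3*, *Usp17lc*, *Zfp352*, *Tmem92* and *AU018091*. Of these, 6 were rows of the deposited table of 16336 genes, and *Tcstv1*, *Usp17lc* and *Zfp352* were not analysed here. Every listed gene had a group mean of 1 TPM (a share of all transcripts, corrected for length) or more somewhere among the lines and days, so a low gene is present through its highest group.

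E14Tg2a is the wild-type ES cell line. ΔK9.1 and ΔK9.2 were derived from it and are independent clones, each homozygous for a deletion of the region marked by H3K9me3 between the *Nanog* enhancer and promoter, so that each is a single clone. All lines were grown on gelatine with foetal calf serum and LIF (day 0) and were differentiated as embryoid bodies (EBs) to days 4, 6 and 8. The EBs were formed in LIF medium and then kept without LIF on dishes not treated for cell culture until day 4. They were then replated at very low density on gelatine, still without LIF, so days 6 and 8 also differ from day 4 in culture. There were 33 libraries in 12 groups. Each line had 3 replicates on days 0, 4 and 8, and on day 6 only replicates 2 and 3. The study states an approximate read number common to its libraries. The read number of each library cannot be recovered from TPM, so its exact depth is unknown.

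In ES cell cultures, the two-cell-like state is entered by a small fraction of cells at any time and is soon left again. It is driven by the transcription factor DUX, and DPPA2, DPPA4, NELFA and p53 are known to act upstream of it, whereas chromatin regulators such as TRIM28 and the non-canonical Polycomb complex PRC1.6 restrain it. ZSCAN4 proteins are zinc finger proteins linked to telomere maintenance and to activation of the wider programme. In bulk RNA, fewer cells in the state and less RNA per cell cannot be told apart.

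The 3 *Zscan4* genes lie within a cluster on chromosome 7, where the table lists 9 *Zscan4* genes and relatives between 10794242 and 11614112 (mm10, GENCODE M21). *Zscan4c* spans 11005745 to 11010547 on the plus strand, *Zscan4d* spans 11161374 to 11166159 on the minus strand and *Zscan4f* spans 11397915 to 11402318 on the plus strand, and all are annotated as protein coding. The stretches just upstream of their start sites are shown because these genes moved together. They come from RefSeq (GRCm38.p6, the assembly of mm10) and are written 5′ to 3′ on the strand of the gene, with the bases at which the 3 copies are not all alike in capitals.
Zscan4c: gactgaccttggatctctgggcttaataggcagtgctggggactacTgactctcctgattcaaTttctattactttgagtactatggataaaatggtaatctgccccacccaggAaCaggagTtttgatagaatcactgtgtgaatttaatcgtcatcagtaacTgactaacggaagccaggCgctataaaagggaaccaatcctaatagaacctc
Zscan4d: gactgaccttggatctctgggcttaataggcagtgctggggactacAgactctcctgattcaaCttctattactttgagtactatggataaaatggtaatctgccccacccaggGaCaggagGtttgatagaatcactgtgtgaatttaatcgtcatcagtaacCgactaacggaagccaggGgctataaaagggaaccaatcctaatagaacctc
Zscan4f: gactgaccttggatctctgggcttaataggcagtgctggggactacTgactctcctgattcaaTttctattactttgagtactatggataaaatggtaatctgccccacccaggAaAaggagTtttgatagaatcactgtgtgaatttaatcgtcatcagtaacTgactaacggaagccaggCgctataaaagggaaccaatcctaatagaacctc
These are chr7:11005506-11005721 (plus strand), chr7:11166183-11166398 (minus strand) and chr7:11397699-11397914 (plus strand), each of 216 bases. The copies could be aligned without gaps and differed at 7 positions. Over all aligned bases upstream of the start, *Zscan4c* and *Zscan4f* were identical at 226 of 227 (99.6%), *Zscan4c* and *Zscan4d* at 232 of 239 (97.1%) and *Zscan4d* and *Zscan4f* at 209 of 216 (96.8%). The letters GATTNAATC, the core of the DUX motif, were found on neither strand in the 300 bases around any of these 3 starts and in 88 of 32817 promoters of the same length (0.268%). TGCACAC, a motif of ZSCAN4 itself, read on both strands, was likewise not found there and was in 4.40% of all promoters. RefSeq promoters matched 3 of the 6 listed members, the *Zscan4* genes.

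The transcripts are also near copies. Of the 150-base windows of the longest *Zscan4f* transcript, 86.2% occurred unchanged in a transcript of another gene, and the share was 61.0% for *Zscan4c* and 13.0% for *Zscan4d*. No such window was shared for *Tcstv3*, *Tmem92* or *AU018091*. How the authors' quantification divided reads among the *Zscan4* copies therefore bears on each single copy, and the sum over the copies is given beside them. *Tcstv3* lies on chromosome 13 (120316878 to 120318178, plus strand), *Tmem92* on chromosome 11 (94777217 to 94782703, minus strand) and *AU018091* on chromosome 7 (3154658 to 3169203, minus strand), 49423 bases from the hairpin gene *Mir290a* of the ES cell-specific miR-290 cluster.

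The markers of the labelled cell type were high on day 0. The summed level of *Pou5f1*, *Sox2*, *Nanog* and *Zfp42* was 2827 to 3415 TPM over the 9 libraries. On day 8 it was 140.4 to 281 TPM in E14Tg2a, below the 317 to 860.0 TPM of ΔK9.1 and the 383 to 962 TPM of ΔK9.2. The 9 primitive and visceral endoderm markers summed to 131, 8.33 and 11.8 TPM in E14Tg2a replicates 1, 2 and 3 on day 0, to 61.9, 5.88 and 5.74 TPM in ΔK9.2 and to 11.0, 5.07 and 4.91 TPM in ΔK9.1, so that replicate 1 was highest in each line. For E14Tg2a, ΔK9.1 and ΔK9.2 in that order, they summed to 94.9 to 775, 5.65 to 39.5 and 23.7 to 215 TPM on day 4 and to 346 to 473, 33.8 to 140.1 and 54.7 to 71.9 TPM on day 8. The 5 mesoderm markers summed to between 1.66 and 6.17 TPM on day 0, and to 632 to 689, 141 to 530.4 and 290.2 to 629 TPM on day 8 in the same order.

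On day 0, the *Zscan4* genes were low in wild-type cells and uneven between cultures. *Zscan4f*, the highest of the 3 copies, had 23.9, 3.95 and 11.7 TPM in E14Tg2a replicates 1, 2 and 3. *Zscan4c* had 12.5, 2.72 and 5.36 TPM in the same libraries, and *Zscan4d* had 5.42, 1.36 and 2.18 TPM. The first replicate held the most of each copy and the second the least, a spread of 6.05-fold for *Zscan4f*, 4.59-fold for *Zscan4c* and 4.00-fold for *Zscan4d*.

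In ΔK9.2 the replicates had the same ranking. *Zscan4f* had 29.7, 5.81 and 9.67 TPM in ΔK9.2 replicates 1, 2 and 3. *Zscan4c* had 13.3, 2.64 and 4.5 TPM there, and *Zscan4d* had 5.14, 0.747 and 2.40 TPM. For each copy the ΔK9.2 libraries overlapped those of E14Tg2a.

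In ΔK9.1 the values of all 3 copies were low. *Zscan4c* had 2.54, 0.373 and 0.883 TPM in ΔK9.1 replicates 1, 2 and 3, all below the lowest E14Tg2a library. *Zscan4d* had 0.943, 0.231 and 0.629 TPM, also below every E14Tg2a library. *Zscan4f* had 10.2, 0.659 and 1.5 TPM, and only its replicate 1 lay within the range of E14Tg2a. All ΔK9.1 libraries lay below all E14Tg2a libraries for 11.8% of the 16336 genes.

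Compared within a replicate number, ΔK9.1 had less than E14Tg2a in 3 of 3 pairs for each copy. Every gene whose ΔK9.1 libraries all lay below E14Tg2a does so too, which is at least 11.8% of all genes. The full share was not counted. The *Zscan4c* level of ΔK9.1 was 20.4%, 13.7% and 16.5% of that of E14Tg2a in replicates 1, 2 and 3, and that of *Zscan4f* was 42.5%, 16.7% and 12.8%. Summed over the 3 copies, E14Tg2a had 41.8, 8.03 and 19.3 TPM, ΔK9.1 had 13.7, 1.26 and 3.01 TPM and ΔK9.2 had 48.2, 9.2 and 16.6 TPM. Summed over all 9 listed *Zscan4* genes, ΔK9.1 had 27.4%, 12.4% and 16.3% of the level of E14Tg2a, and ΔK9.2 had 112%, 104% and 100.4%. The low values of ΔK9.1 were thus also seen in the family sum, which depends less on how reads were divided among these 9 genes. Some dependence remains, because the transcripts differ in length and some windows also occur in *Gm45551*, which is outside the sum.

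**Figure D1:**
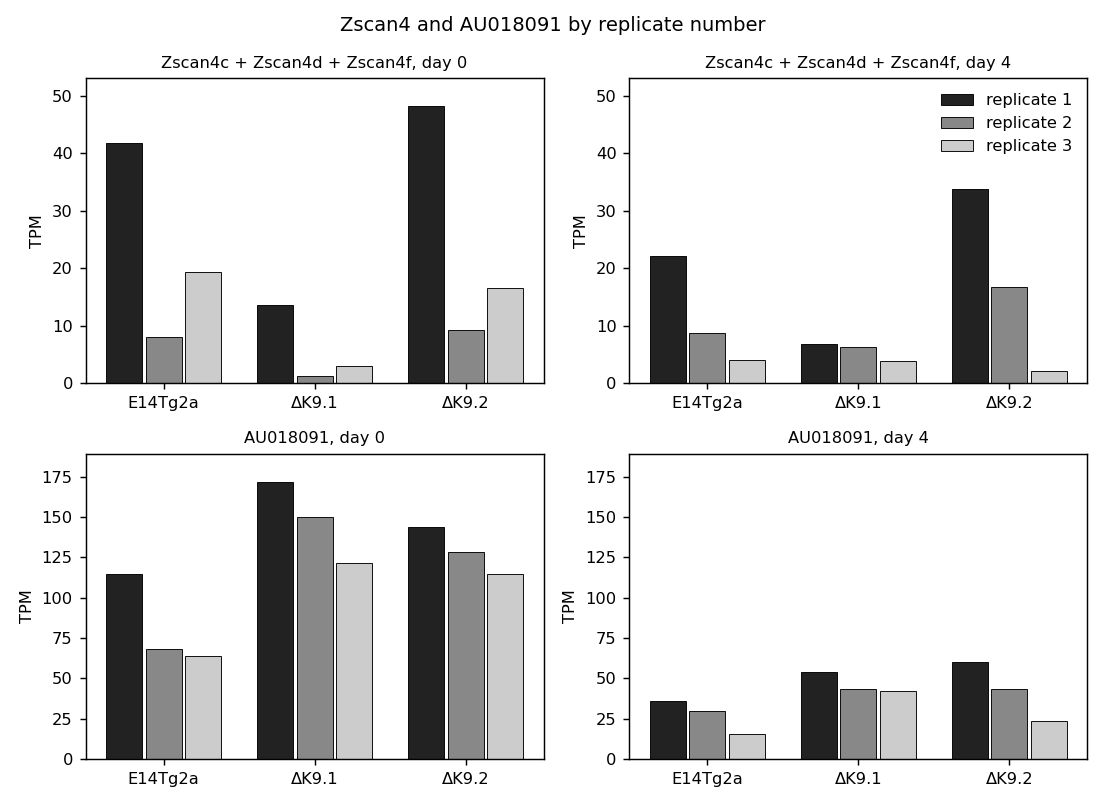
TPM (y axis, from 0) of the 3 *Zscan4* members summed (top) and of *AU018091* (bottom) in each line on day 0 (left) and day 4 (right), with 1 bar per library shaded by replicate number. On day 0, replicate 1 is the tallest bar in every line, the *Zscan4* bars of ΔK9.1 are below those of the same number in both other lines, and the *AU018091* bars of both clones are above those of the same number in E14Tg2a.

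The main fits, which left out the replicate number, gave no call for the *Zscan4* genes on day 0 between lines. Fits that paired the samples by this number did give calls in ΔK9.1. Each clone was compared with E14Tg2a on the 9 libraries of that day with limma on log2(TPM + 1), over 14504 genes, and a call needed an adjusted p under 0.05 and a difference past 0.3 on this scale, on which the change of a low gene comes out smaller than it is. *Zscan4c* differed in ΔK9.1 by -1.71 (standard error 0.59, limma adjusted p = 0.0771), *Zscan4d* by -1.21 (standard error 0.47, adjusted p = 0.112) and *Zscan4f* by -1.69 (adjusted p = 0.185). With these thresholds, 4.88% of the tested genes were called lower in ΔK9.1, against 0.0758% in ΔK9.2. With the replicate number as a block in the limma fit, all 3 copies were called lower in ΔK9.1, with an adjusted p of 0.00132 for *Zscan4c* (standard error 0.15), 0.00944 for *Zscan4d* and 0.00256 for *Zscan4f*. The blocked fit called 8.63% of the tested genes lower in this clone. In ΔK9.2, none of the 3 was called in either fit. Without the replicate 1 libraries of every line, a set chosen after seeing the data, limma called *Zscan4c* (-1.60, adjusted p = 0.0332) and *Zscan4f* (-1.96, adjusted p = 0.0435) lower in ΔK9.1, as it did 4.05% of the genes tested there. With all 33 libraries in the fit, *Zscan4c* alone of the 3 copies was called (adjusted p = 0.0439), as were 3.26% of the genes.

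The clones carry the same deletion and were also compared with each other. On day 0, *Zscan4c* differed by -1.66 in ΔK9.1 relative to ΔK9.2 (standard error 0.55, limma adjusted p = 0.120), *Zscan4f* by -1.86 (standard error 0.73, adjusted p = 0.209) and *Zscan4d* by -1.08 (adjusted p = 0.219), and all ΔK9.1 libraries lay below all ΔK9.2 libraries for *Zscan4c*. This comparison used all 33 libraries and a threshold of 1, and it called 0.367% of all genes lower and 0.153% higher. For 10.5% of all genes, every ΔK9.1 library lay below every ΔK9.2 library. With the replicate block, here shared by all days, *Zscan4c* (limma adjusted p = 0.0327) and *Zscan4f* (adjusted p = 0.0479) were called. They were among 0.631% of all genes called lower by that fit. On days 4, 6 and 8, 0 of 6 members were called between the clones by limma, and 0 had an unadjusted p under 0.05. The only call among all genes on these days was 1 gene on day 6 (0.00612%). The mean of both clones against E14Tg2a gave 0 calls among 6 members on each of the 4 days with limma. At an unadjusted p under 0.05, 1 member was counted on days 0, 4 and 8 and 0 on day 6, and the member was *AU018091* each time. Over all genes the share at that p was 17.6%, 15.5%, 17% and 32% on days 0, 4, 6 and 8, so that 1 of 6 members is a share near or below the background. On days 0, 4, 6 and 8 this comparison called 0.165%, 0.710%, 1.37% and 3.42% of all genes lower and 0.220%, 0.0857%, 0.251% and 0.826% higher.

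*Tmem92*, which encodes a transmembrane protein and is a marker of the state, was near the lower limit of the table. It had 2.07, 0.364 and 0.621 TPM in E14Tg2a, 0.855, 0.0659 and 0.0883 TPM for ΔK9.1 and 2.46, 0.242 and 0.818 TPM for ΔK9.2 on day 0. Replicate 1 was again the highest in each line, and ΔK9.1 was again below E14Tg2a in 3 of 3 pairs, as were at least 11.8% of all genes. The groups overlapped, and limma made no call.

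*Tcstv3*, a gene of the 2-cell embryo linked to telomere length, did not follow this order. It had 1.57, 0.165 and 1.27 TPM in E14Tg2a, 0.362, 0.231 and 0.397 TPM for ΔK9.1 and 1.83, 0.264 and 0.589 TPM for ΔK9.2 on day 0. Replicate 1 was the highest in E14Tg2a and ΔK9.2 but not in ΔK9.1, where replicate 3 was, and ΔK9.1 was below E14Tg2a in 2 of 3 pairs.

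*AU018091* was by far the most abundant member and went the other way. It had 115, 68.0 and 63.7 TPM in E14Tg2a replicates 1, 2 and 3 on day 0. It had 172, 149.9 and 122 TPM in ΔK9.1, all above every E14Tg2a library, and 144, 128 and 115 TPM in ΔK9.2, where only replicate 3 (114.5 TPM) was not above the highest E14Tg2a library (114.7 TPM). Each clone was higher than E14Tg2a in 3 of 3 pairs. All ΔK9.1 libraries lay above all E14Tg2a libraries for 20.4% of the genes, so at least this share was higher in 3 of 3 pairs in ΔK9.1. The full share was not counted for either clone.

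In ΔK9.1, *AU018091* was called higher by limma (0.88, standard error 0.21, adjusted p = 0.0233), as were 9.96% of the tested genes. In ΔK9.2 the difference was 0.69 (standard error 0.21, adjusted p = 0.324), and 1 of the 14504 genes was called higher in that clone. A call in both clones, which the study required on day 0, was therefore not reached. In this limma fit, 0% of the genes met it in the higher and 0.0758% in the lower direction. The study's own DESeq2 tests of read counts called many more genes in both clones at the same thresholds. A missing call here thus does not show that a member did not differ. With the replicate block, the limma adjusted p of ΔK9.2 was 0.0449, and a call in both clones was reached. The blocked fit called 0.607% of the genes higher in ΔK9.2 and 0.469% in both clones. The call in ΔK9.1 was lost without E14Tg2a replicate 2 (adjusted p = 0.0813), without E14Tg2a replicate 3 (0.0791), without ΔK9.1 replicate 1 (0.0774) or without ΔK9.1 replicate 2 (0.0792, all from limma). It was also lost with all 33 libraries in the fit (adjusted p = 0.118). Without E14Tg2a replicate 1, it was called in both clones (ΔK9.2 0.95, limma adjusted p = 0.0341), as were 0.409% of the genes, and 0.478% were called higher in ΔK9.2.

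Replicate 1 stood out on day 0 for most members. It was the highest of the 3 libraries in all 3 lines for *Zscan4c*, *Zscan4d*, *Zscan4f*, *Tmem92* and *AU018091*, 5 of the 6 members, and this held for 15.6% of all genes. For the summed *Zscan4* members, replicate 1 had 5.21 times the level of replicate 2 in E14Tg2a, 10.8 times for ΔK9.1 and 5.24 times for ΔK9.2. Replicate 1 of *AU018091* exceeded replicate 2 by much less, 1.69 times in E14Tg2a, 1.15 times for ΔK9.1 and 1.12 times for ΔK9.2. The coefficient of variation of *Zscan4f* over the 3 replicates was 76.3% in E14Tg2a, 128% for ΔK9.1 and 85.1% for ΔK9.2, and the median over genes averaging 1 TPM or more was 14.7%, 11.2% and 12.7%. In these libraries, 97.0%, 99.4% and 98.4% of such genes varied less than *Zscan4f*. The endoderm markers were highest in the same replicate 1 libraries, as given above, and their part in these values was not tested.

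**Figure D2:**
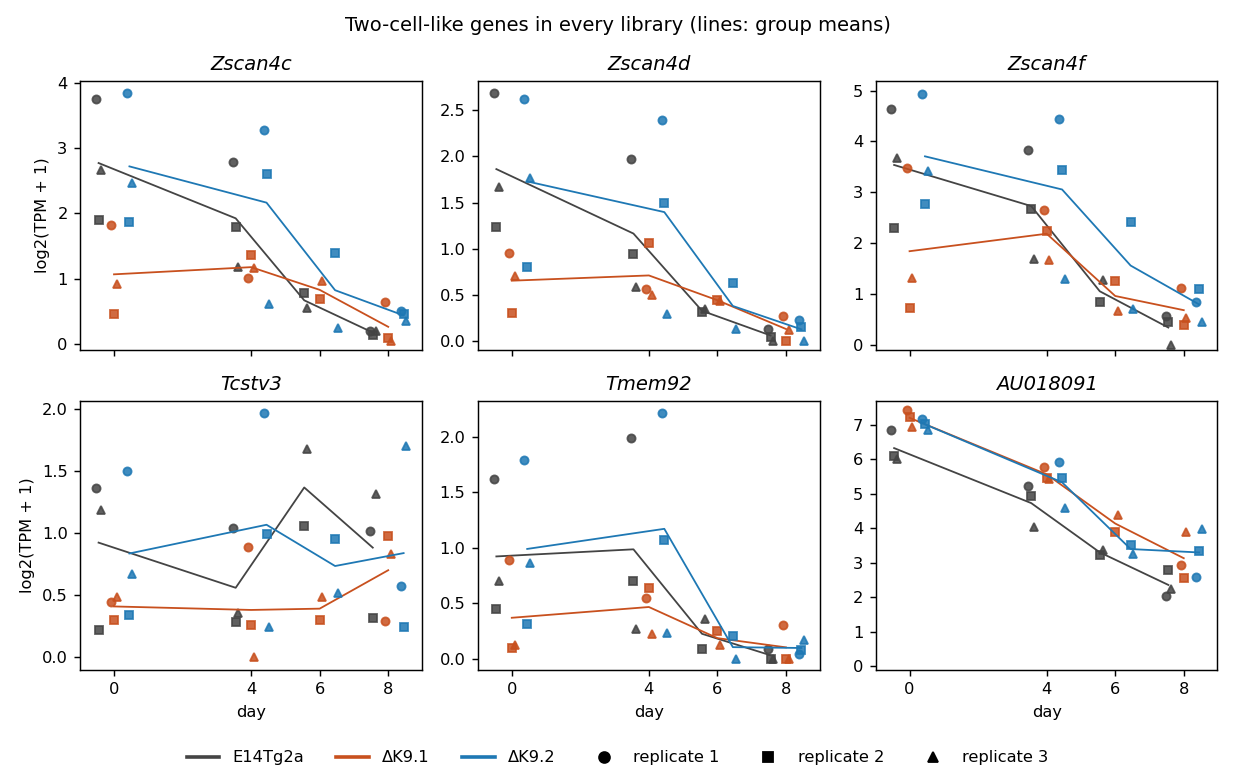
log2(TPM + 1) (y axis) of each listed member by day (x axis, with lines and replicates shifted sideways within a day), with 1 point per library, coloured by line and shaped by replicate number, and group means joined. The *Zscan4* genes and *AU018091* decline towards day 8, the replicate 1 points are the highest for the *Zscan4* genes on day 0, and *Tcstv3* has no common direction.

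During EB differentiation, *AU018091* fell in all 3 lines from day 4 onwards. In E14Tg2a it had 36.1, 29.5 and 15.6 TPM on day 4, 8.39 and 9.39 TPM on day 6 and 3.10, 5.92 and 3.77 TPM on day 8. In ΔK9.1 it had 54.2, 43.3 and 42.3 TPM on day 4, 13.7 and 20.1 TPM on day 6 and 6.72, 4.91 and 13.8 TPM on day 8. In ΔK9.2 it had 59.9, 43.3 and 23.3 TPM on day 4, 10.6 and 8.64 TPM on day 6 and 5.0, 9.15 and 14.7 TPM on day 8. Every library of a later day was below every day 0 library of its line. That was so for 24.4%, 31.4% and 27.3% of all genes on days 4, 6 and 8 in E14Tg2a, for 38.4%, 35.4% and 27.3% in ΔK9.1 and for 32.8%, 37.1% and 29.3% in ΔK9.2.

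Over all 33 libraries with a threshold of 1, *AU018091* was called lower by limma on day 8 in E14Tg2a (-3.97, standard error 0.36, adjusted p = 1.08e-09), likewise for ΔK9.1 (-4.07, adjusted p = 1.73e-09) and ΔK9.2 (-3.71, adjusted p = 4.63e-09). On that day 11.0%, 10% and 11.3% of all genes were called lower in E14Tg2a, ΔK9.1 and ΔK9.2. The falls were also called on day 4 and on day 6 in each line, 9 of 9 comparisons. On day 4 it was already lower by 1.59 to 1.68 on the log2 scale, and 4.07%, 4.02% and 5.09% of all genes were called lower. The mean of both clones minus E14Tg2a was 0.72 on day 4 (limma adjusted p = 0.251) and 0.86 on day 8 (standard error 0.31, adjusted p = 0.0518), without a call. Without ΔK9.1 day 8 replicate 2 or without ΔK9.2 day 8 replicate 1, the difference on day 8 was called (1.0 and 1.04, limma adjusted p = 0.0222 and 0.0212). These fits called 1.15% and 0.778% of all genes higher. On the same day, 4 of 4 pluripotent cell markers were called higher in the mean of both clones (median difference 1.46). Of the mesoderm markers, 2 of 5 were called higher (median 1.70), and 6 of 9 endoderm markers were called lower (median -2.02). Of all genes, 0.826% were called higher and 3.42% lower in that comparison. The part of these markers in the difference of *AU018091* was not tested.

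The *Zscan4* genes were low by day 8. *Zscan4f* had 13.3, 5.37 and 2.21 TPM in E14Tg2a on day 4, 0.797 and 1.41 TPM on day 6 and 0.492, 0.377 and 0 TPM on day 8. In ΔK9.2 it had 20.8, 9.80 and 1.45 TPM on day 4, 4.36 and 0.629 TPM on day 6 and 0.801, 1.14 and 0.368 TPM on day 8. In ΔK9.1 it had 5.33, 3.72 and 2.17 TPM on day 4, 1.39 and 0.595 TPM on day 6 and 1.19, 0.308 and 0.456 TPM on day 8. In E14Tg2a and ΔK9.2, each later library from day 6 on lay below each day 0 library for *Zscan4f*. On days 6 and 8 that was so for 31.4% and 27.3% of all genes in E14Tg2a and 37.1% and 29.3% in ΔK9.2. In ΔK9.1 the libraries of each later day overlapped those of day 0 for *Zscan4f*. For *Zscan4d* in ΔK9.1, the day 8 libraries all lay below those of day 0, as for 27.3% of all genes.

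*Zscan4c* took the same course. It had 5.93, 2.48 and 1.27 TPM on day 4, 0.720 and 0.464 TPM on day 6 and 0.142, 0.0968 and 0.141 TPM on day 8 in E14Tg2a. In ΔK9.1 it had 1.02, 1.56 and 1.23 TPM on day 4, 0.608 and 0.958 TPM on day 6 and 0.558, 0.0660 and 0.0334 TPM on day 8. In ΔK9.2 it had 8.71, 5.08 and 0.529 TPM on day 4, 1.64 and 0.184 TPM on day 6 and 0.411, 0.369 and 0.279 TPM on day 8. *Zscan4d* was at most 4.27 TPM on day 4, 0.542 TPM on day 6 and 0.204 TPM on day 8 in any line, and was listed at 0 in 1 library of each line on day 8.

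On day 8, limma called all 3 copies lower than on day 0 in E14Tg2a, with -2.60 for *Zscan4c* (standard error 0.55, adjusted p = 0.000232), -1.80 for *Zscan4d* (adjusted p = 0.000841) and -3.19 for *Zscan4f* (standard error 0.73, adjusted p = 0.000571). In ΔK9.2 the 3 copies were called with -2.29, -1.60 and -2.91 (limma adjusted p = 0.00107, 0.00291 and 0.00169). In ΔK9.1 they were not called, with -0.81, -0.52 and -1.16 (limma adjusted p = 0.232, 0.329 and 0.197). With 0.1 in place of 1 as the pseudocount, *Zscan4c* was called in ΔK9.1 too (-2.13, limma adjusted p = 0.0377), as were 13.5% of all genes. The test of the difference between these courses, the mean of both clones minus E14Tg2a, gave 0 calls and 0 members at an unadjusted p under 0.05 with limma, with 1.06 for *Zscan4c* (standard error 0.67, adjusted p = 0.371). That comparison called 2.55% of all genes lower and 0.508% higher. The courses of ΔK9.1 and of E14Tg2a were not tested against each other singly.

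On day 6, limma called the 3 copies lower in E14Tg2a (-2.11, -1.54 and -2.48 for *Zscan4c*, *Zscan4d* and *Zscan4f*, adjusted p = 0.00775, 0.0128 and 0.0178) and in ΔK9.2 (-1.90, -1.35 and -2.14, adjusted p = 0.0153, 0.0270 and 0.0387). On that day 8.69%, 7.90% and 10.5% of all genes were called lower in E14Tg2a, ΔK9.1 and ΔK9.2. With 2 libraries per line on that day, these calls rested on single libraries. In E14Tg2a all 3 were lost without day 0 replicate 1 (adjusted p of 0.0509 to 0.0878) or without day 6 replicate 3, and 2 of them without day 6 replicate 2. In ΔK9.2 all 3 were lost without day 0 replicate 1 (adjusted p of 0.103 to 0.183) or without day 6 replicate 3 (0.193 to 0.379), *Zscan4d* and *Zscan4f* without day 0 replicate 3, and *Zscan4d* without day 6 replicate 2. With only replicates 2 and 3 of every line, limma no longer called *Zscan4d* and *Zscan4f* in ΔK9.2 on day 6 (adjusted p = 0.0561 and 0.0741). On day 8, no call of these copies was lost when any 1 library was left out.

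On day 4 the ranking of replicates changed. In ΔK9.2 the summed *Zscan4* members had 33.8, 16.7 and 2.20 TPM in replicates 1, 2 and 3, a spread of 15.4-fold. In E14Tg2a they had 22.2, 8.77 and 3.98 TPM, and in ΔK9.1 they had 6.83, 6.38 and 3.81 TPM. Replicate 3 was the lowest in each line, where on day 0 replicate 2 was. In replicate 3, ΔK9.1 held 95.8% of the E14Tg2a level, against 30.8% in replicate 1 and 72.7% in replicate 2.

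*Tmem92* was low from day 6 on, like the *Zscan4* genes, but its mean did not fall by day 4 in any line. From day 0 to day 4 the mean went from 1.02 to 1.26 TPM in E14Tg2a and from 1.17 to 1.64 TPM in ΔK9.2, without a call. In single libraries, *Tmem92* had 2.96, 0.627 and 0.205 TPM on day 4 in E14Tg2a, 0.457, 0.552 and 0.164 TPM for ΔK9.1 and 3.64, 1.09 and 0.173 TPM for ΔK9.2. It was at most 0.280 TPM on day 6 and at most 0.236 TPM on day 8 in any library. In E14Tg2a and ΔK9.2 each library of days 6 and 8 was below each of day 0. On these days that was so for 31.4% and 27.3% of all genes in E14Tg2a and 37.1% and 29.3% in ΔK9.2. The differences of day 8, -0.89 in both lines, did not pass the threshold of 1 (limma adjusted p = 0.0674 in E14Tg2a and 0.0739 in ΔK9.2). With a pseudocount of 0.1 they were called (-2.93 and -2.49, limma adjusted p = 0.00771 and 0.0247), as were 14.9% and 14.8% of all genes.

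*Tcstv3* had no common course. In E14Tg2a it had 1.05, 0.216 and 0.280 TPM on day 4, 1.08 and 2.19 TPM on day 6 and 1.02, 0.247 and 1.49 TPM on day 8. In ΔK9.1 it had 0.848, 0.195 and 0 TPM on day 4, 0.232 and 0.396 TPM on day 6 and 0.226, 0.968 and 0.778 TPM on day 8. In ΔK9.2 it had 2.91, 0.984 and 0.183 TPM on day 4, 0.930 and 0.434 TPM on day 6 and 0.487, 0.184 and 2.24 TPM on day 8. Its highest library on day 8 was ΔK9.2 replicate 3, above every day 0 library, and limma made no call in any comparison.

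In all, 21 of the 54 tests of a member on a later day against day 0 were called, all lower: *AU018091* in 9, and the 3 *Zscan4* genes on days 6 and 8 in E14Tg2a and ΔK9.2 in 12. On day 8 the median difference of the 6 members was -2.20 in E14Tg2a, -0.66 for ΔK9.1 and -1.95 for ΔK9.2, and that of all 16336 genes was 0.05, 0.0047 and -0.02.

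**Figure D3:**
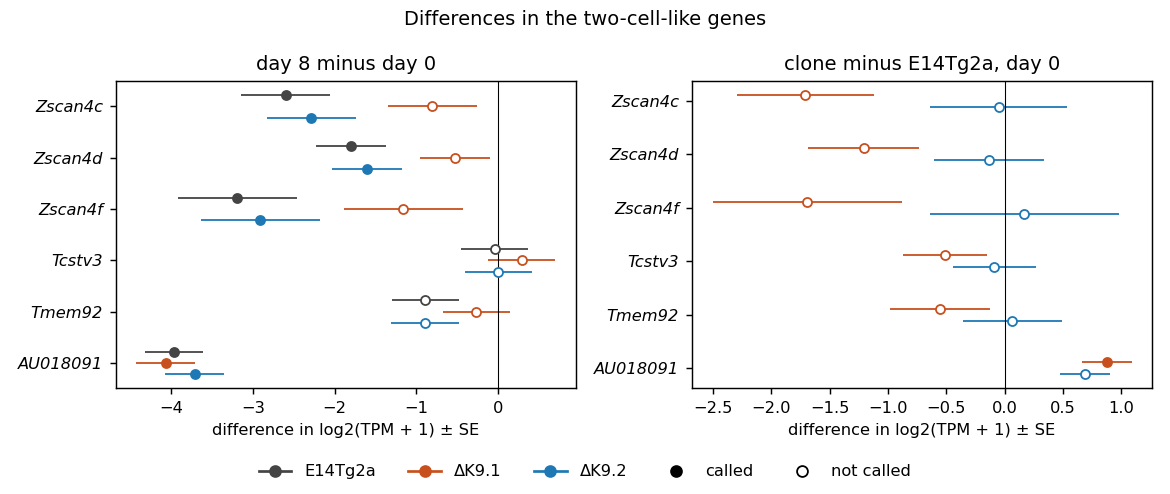
Differences in log2(TPM + 1) (x axis) with standard errors from limma for the 6 listed members, day 8 minus day 0 in each line (left) and each clone minus E14Tg2a on day 0 (right). The fits shown are those without the replicate block. Filled points passed the thresholds of their comparison. *AU018091* is filled in all 3 lines on the left and in ΔK9.1 on the right, and the *Zscan4* genes are filled in E14Tg2a and ΔK9.2 on the left.

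Within a group, *Tmem92* varied with the *Zscan4* genes from library to library. After the mean of each of the 12 groups was taken off, the log2 values of *Tmem92* correlated with those of the summed *Zscan4* members with a Pearson r of 0.89 over the 33 libraries, and those of *Tcstv3* and *AU018091* with r of 0.55 and 0.50. The 9 endoderm markers had r between 0.25 (*Ttr*) and 0.65 (*Cubn*), so the values of *Tcstv3* and *AU018091* do not stand apart from those of genes outside the state. *Zscan4c*, *Zscan4d* and *Zscan4f* had r of 0.94, 0.89 and 0.93 with the sum of the other copies, with which they share reads. The libraries of a replicate number were made in parallel across lines, so these are descriptions and the points are not independent.

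Of the genes outside the set, those most like the summed *Zscan4* members were mostly on a list of other two-cell-like genes written by hand, which holds 24 listed genes of 50. By their deviations from the group means, the 10 highest were *Gm21293* (r of 0.95), *Gm21304* (0.95), *Zscan4e* (0.95), *Gm8994* (0.94), *Gm5662* (0.93), *Gm21761* (0.93), *Zscan4a* (0.93), *Gm2016* (0.93), *Zscan4-ps3* (0.92) and *Gm20765* (0.92). Of these, 6 are on the list, and 3 of the 6, *Zscan4e*, *Zscan4a* and *Zscan4-ps3*, hold transcript windows of the members unchanged, so shared reads can enter their r. By their levels over the 33 libraries, the highest were *Zscan4e* (r of 0.97), *Gm2016* (0.97), *Zscan4-ps2* (0.97), *Gm21304* (0.96), *Gm21293* (0.96), *Zscan4a* (0.96), *Gm5662* (0.96), *Gm8038* (0.96), *Gm21761* (0.95) and *Gm8994* (0.95), and 8 genes were in both sets of 10. *Gm21293*, *Gm21304* and *Gm20765* lie on chromosome 10 between 104142987 and 104188000, *Gm5662* and *Gm2016* lie on chromosome 12, and *Gm21761* lies on chromosome 13. The median r of the deviations was 0.87 over the 24 listed genes and 0.08 over all genes. Of the 24, 16 exceeded 0.7, as did 0.784% of all genes. Among the 16 were *Zscan4a*, *Zscan4b*, *Zscan4e*, *Zscan4-ps1*, *Zscan4-ps2* and *Zscan4-ps3*. These hold transcript windows of the members unchanged, so shared reads can enter the count and the median.

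**Figure D4:**
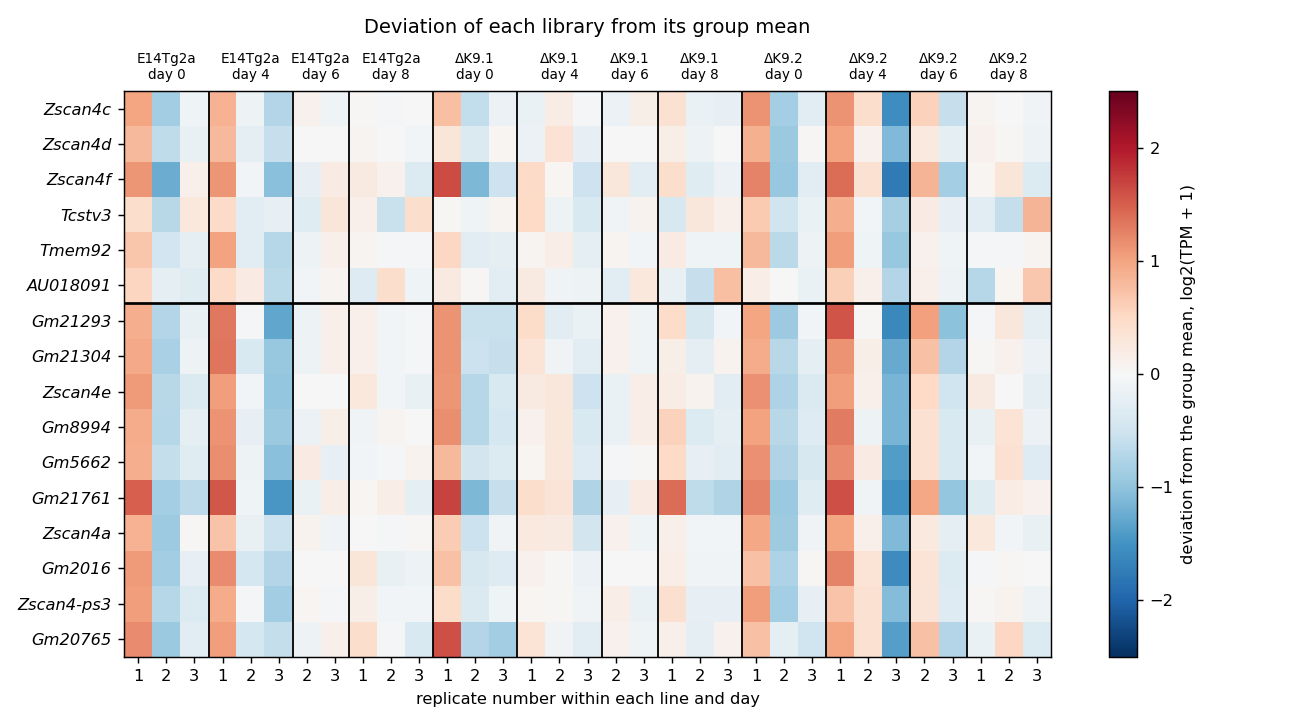
Deviation of each library from the mean of its line and day in log2(TPM + 1) (colour, red above and blue below) for the 6 members (above the black line) and the 10 genes whose deviations were most like those of the *Zscan4* members (below it). Columns are the 33 libraries by line, day and replicate number. Replicate 1 is above its group mean on day 0 in each line for every gene shown, and replicate 3 is below it on day 4 in E14Tg2a and ΔK9.2.

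The other two-cell-like genes were mostly lower on day 8 in E14Tg2a and ΔK9.2. On day 8, limma called 15 of 24 lower and 2 higher than on day 0 in E14Tg2a, 18 lower and 1 higher in ΔK9.2, and 1 lower and 1 higher in ΔK9.1, with a median difference of -1.61, -1.52 and -0.32 in that order. Of all genes, 15.9%, 11.0% and 10.9% were called higher in E14Tg2a, ΔK9.2 and ΔK9.1. In the same order, 11.0%, 11.3% and 10% of all genes were called lower. The counts of the lines were not tested against each other. A low gene of this list is present through its highest group. Where that group was day 0 in E14Tg2a or ΔK9.2, the filter in part favoured a later fall in that line. The *Zscan4* relatives on the list also hold transcript windows of the members, so their calls are not separate from those of the members. On day 0, 2 of the 22 tested were called lower in ΔK9.1, *Gm4340* (-2.62, standard error 0.69, limma adjusted p = 0.0326) and *Gm5662* (-1.89, adjusted p = 0.0475), with a median difference of -1.12 for ΔK9.1 and 0.15 for ΔK9.2. The medians of all tested genes were 0.07 and 0.05, and 4.88% of these genes were called lower in ΔK9.1. *Gm5662* was named after its value was seen. Against ΔK9.2, limma called *Gm2022* (-1.43, adjusted p = 0.0118) and *Pramel6* (-1.39, adjusted p = 0.0196), also named after their values were seen, lower in ΔK9.1 on day 0.

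Of the 6 highest genes of that list, *Gm21761* had 17.6 TPM on day 0 in E14Tg2a as a mean, 5.13 TPM for ΔK9.1 and 17.2 TPM for ΔK9.2, and *Zscan4e* had 7.36, 1.42 and 8.07 TPM. *Gm4340* had 14.5, 1.44 and 13.5 TPM in the same order. *Calcoco2*, which encodes an autophagy receptor, had 17.1, 19.1 and 22.4 TPM, and it fell in all 3 lines by day 8 (-2.50, -2.21 and -2.78 in E14Tg2a, ΔK9.1 and ΔK9.2, limma adjusted p = 1.63e-05, 0.00011 and 5.25e-06). *P4ha2*, which encodes a subunit of collagen prolyl 4-hydroxylase, rose by day 8 in E14Tg2a (1.63, limma adjusted p = 0.00362) and was lower in the clones on that day (-1.12, adjusted p = 0.0476). *Ddit4l*, an inhibitor of mTORC1 signalling, had 11.9, 7.16 and 7.79 TPM on day 0 and was not called. *Tmem132c*, named after its values were seen, was the other gene called higher on day 8, in all 3 lines (2.40, 1.60 and 1.28, limma adjusted p = 3.73e-07, 0.000136 and 0.00128).

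Of the 6 activators of the state on the list, 4 were listed, and *Dux* and *Duxf3* were not analysed here. *Dppa2* had a mean of 65.7 TPM on day 0 in E14Tg2a, 52.0 TPM for ΔK9.1 and 71.6 TPM for ΔK9.2, and *Dppa4* had 130.2, 109 and 124 TPM. Both encode DNA-binding proteins of pluripotent cells, and both were called lower by day 8 in all 3 lines, *Dppa2* by -4.71, -3.32 and -4.40 and *Dppa4* by -3.82, -2.69 and -3.52 (limma adjusted p of at most 1.02e-07). *Trp53*, which encodes p53, was called lower in ΔK9.1 on day 0 (-0.58, standard error 0.11, limma adjusted p = 0.0101), with 224 TPM in E14Tg2a, 149.5 TPM for ΔK9.1 and 194 TPM for ΔK9.2. *Nelfa*, a subunit of the negative elongation factor, had 39.4, 36.8 and 38.9 TPM and was not called in that comparison.

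All 23 repressors of the state on the list were listed. On day 0, limma called 4 higher and 2 lower for ΔK9.1 and 0 for ΔK9.2. Of all tested genes, 9.96% were called higher and 4.88% lower in ΔK9.1, against 0.00689% and 0.0758% in ΔK9.2. In ΔK9.2, 1375 of all genes had an unadjusted p under 0.05 with limma, and *Setdb1*, *Zmym2* and *Pias4*, named after their values were seen, were the repressors among them. *Trim28*, the corepressor of KRAB zinc finger proteins, was among those lower in ΔK9.1 (-0.33, standard error 0.08, adjusted p = 0.0197), with means of 998 TPM in E14Tg2a, 794 TPM for ΔK9.1 and 1030.1 TPM for ΔK9.2. By day 8 in E14Tg2a, 4 of the 23 repressors were called lower and 0 higher, and of all genes 11.0% were called lower and 15.9% higher. The largest falls were those of *Rif1* (-1.61), *L3mbtl2*, a component of PRC1.6 (-1.42), and *Trim28* (-1.25, limma adjusted p of at most 4.32e-08).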

How the data were processed

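RNA of 33 libraries was measured by poly-A sequencing. From stranded, paired-end reads the authors obtained TPM for each library by RSEM after STAR alignment (mm10), and these were deposited; versions and annotation are not given in the sources used here, and libraries that lay far off by PCA had been omitted. The same table holds the authors' own DESeq2 log2 fold changes and adjusted p-values (FDR), as deposited, which were not used. Column totals were 994284 to 998266 TPM. The exact depth of each library cannot be recovered from TPM, so precision was taken from the replicates.

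Groups follow the sample titles. Differences were fitted with limma 3.58.1 (R 4.3.3, empirical Bayes with trend) on log2(TPM + 1) across all genes averaging 1 TPM or more in a fitted group, with Benjamini-Hochberg adjustment over all of them. Day 0 clones were fitted on 9 libraries (threshold 0.3, in both clones) and all else on 33 (threshold 1), with the thresholds of the study's methods. The procedure was tested on simulated data without pairing of replicates and with changes placed only in higher genes. That test does not cover low genes such as the *Zscan4* copies.

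The study's supplement describes parallel assays. Of the pairs of libraries with the same number and day in different lines, all 9 on each of days 0, 4 and 8 had a correlation of deviations above 0.1 (medians 0.228, 0.265 and 0.320), and 4 of 6 on day 6. The numbers were therefore taken to pair the samples on days 0, 4 and 8. The main fits did not use this pairing, and only the fit with the replicate block did. The block gives each replicate number an effect shared by all lines and, with 33 libraries, by all days including day 6. A ranking of replicates that changes between days, as for the *Zscan4* genes, is not followed by it. Separate cultures are otherwise not stated by the labels, and p-values cover the spread between these samples.

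The members and lists were chosen with earlier results of these data known. Named beside the members were the 6 highest genes of the two-cell-like list, every activator, the repressors with the 3 largest called falls and rises in E14Tg2a by day 8, and the 10 genes most like the summed *Zscan4* members by each measure. Alternatives were 0.1 as pseudocount, 5 TPM or none as minimum, median ratio rescaling, the replicate block, robust variances, another set of libraries, only replicates 2 and 3, and each library left out. Positions come from GENCODE M21. Figures were drawn with matplotlib 3.10.9 in Python 3.11.15.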

Additional observations from a re-analysis of the deposited data

How the results depend on the processing

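The 21 calls of members against day 0 were 17 to 25 under every alternative, 25 with a pseudocount of 0.1, 17 with a minimum of 5 TPM, which leaves *Zscan4d* and its 4 calls untested, and 19 with only replicates 2 and 3. With the replicate block, the calls on day 0 in both clones moved from 0 to 1 (*AU018091*). Those of ΔK9.1 against ΔK9.2 moved from 0 to 2 (*Zscan4c* and *Zscan4f*), in a fit whose block is shared by all days. Beside these and the *Zscan4* genes of ΔK9.1 on day 0, the block changed no other call of a member. With 1 library left out, the counts ranged from 0 to 1 for both clones on day 0 and from 0 to 1 for the mean of both clones on each day. The cause was not tested. Without a call and with an unadjusted p of at least 0.05, 47 of 84 comparisons of members had the other sign under at least 1 alternative, so these are given as values only. Over each *Zscan4* copy, the mean of ΔK9.1 on day 0 was 0.185 (*Zscan4c*), 0.201 (*Zscan4d*) and 0.312 (*Zscan4f*) of that of E14Tg2a, and 0.227 over the 9 genes summed. The exact depth of each library and the share of cells in the state are unknown, and levels under 1 TPM are weak evidence on this scale.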
